A study of Mus musculus with 24 samples.

Results

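The interaction of radiation with miR-21-5p was measured over all 24 tumours of the series, that is, as the radiation response of tumours overexpressing the microRNA minus the response of control tumours. The tumours were grafts of SCC7 (squamous carcinoma cells of the mouse) injected under the flank skin of female C3H mice aged 6 to 8 weeks. Control cells held the vector without insert (NC), and the others overexpressed miR-21-5p (OE). SCC7 was the one parental line. Tumours replicate mice and not the overexpression, so any other difference between NC and OE cells cannot be told apart from miR-21-5p. Mice were assigned to treatments at random once tumours averaged about 300 cubic millimetres, and the day of collection is not given in the sources used here. The 8 groups of 3 tumours were NC sham, NC olaparib, NC irradiated (IR), NC irradiated with olaparib, and the same 4 treatments in OE. Irradiated tumours received 8 Gy of X-rays on each of 3 days, aimed at the tumour. Olaparib, an inhibitor of the PARP enzymes, was injected into the peritoneum at 50 mg/kg, 2 h before each irradiation, with a further dose after the last. Tumours were taken as wholes, so each library also holds RNA of host cells, and fewer cells of a type cannot be told apart from less RNA per cell.

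Groups were read from the letters of each tumour's identifier, which is also the name of its column of counts. The written labels name another group for 19 of the 24 tumours, and the cell type label says overexpression for all 24. Each tumour is called here by that identifier, in which E stands for OE, S for sham, O for olaparib and I for irradiation. The contrast was the mean radiation effect in OE (IR and IR with olaparib against sham and olaparib, 6 tumours against 6) minus the same mean in NC. A positive value on the log2 scale means that a gene was higher after radiation in OE, relative to its change in NC. Nothing in the labels says whether tumours of a group were treated on separate days, so p-values measure the spread between these mice.

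miR-21 is a microRNA made from a transcript that overlaps the gene Vmp1, and it is among the most abundant microRNAs of many carcinomas. It pairs through bases 2 to 8, the seed, with sites in the 3′ untranslated region (3′ UTR) of messenger RNAs and lowers their level or translation. Ionizing radiation breaks DNA, activates p53 and its targets, stops the cell cycle, and in many tissues starts interferon and inflammatory programmes. The mature microRNA is shown because its seed defines the sites counted further on. It lies at chr11:86584120-86584141 on the minus strand of GRCm38.p6, in RefSeq, and the capitals mark its seed.
mmu-miR-21a-5p: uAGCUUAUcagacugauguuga
The microRNA has no row in the counts, so its overexpression could not be checked. Vmp1 spanned 218 to 341 CPM in unirradiated NC tumours and 207 to 262 CPM in unirradiated OE tumours, and these ranges overlapped. CPM here is the reads of a gene per 1000000 counted, after TMM scaling between libraries.

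Libraries held 37099055 to 40004502 counted reads. One tumour stood apart. OE IR with olaparib tumour EIO-744 had a median Spearman correlation of 0.847 with the other libraries, where the other 23 tumours had 0.932 to 0.978. Its summed fibroblast markers reached 156333 CPM against 4983 to 10665 CPM in the other 23, its summed endothelial markers 2641 CPM against 281 to 928, and its summed mitosis genes 179 CPM against 845 to 4839. A second tumour, NC IR I-739, had a level of Cdkn1a within the unirradiated range, at 332 CPM, with 682 to 765 CPM in the other irradiated NC tumours. A further tumour, NC IR I-732, held the highest summed skeletal muscle markers, at 24337 CPM. Results are therefore given over all 24 tumours and without tumour EIO-744, and without tumour I-739 where that moved them.

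Radiation changed both kinds of tumour, and the NC tumours gave the larger number of called genes. By edgeR's quasi-likelihood test at an adjusted p under 0.05, 2115 of 16560 genes were called in OE, which is 12.8%, with 8.17% risen and 4.6% fallen. In NC 4276 genes were called, which is 25.8%, with 2131 risen and 2145 fallen. At an unadjusted p under 0.05 the shares were 31.2% in OE and 40.5% in NC. Without tumour EIO-744, 11.6% were called in OE (6.78% risen, 4.78% fallen) and 37.2% in NC (17.7% risen, 19.6% fallen). OE and NC share no tumours. Of the genes called in OE, 51.8% were also called in NC, and of those called in NC, 25.6% were also called in OE, and 1091 of these 1095 shared genes moved the same way. Across all tested genes, which are not independent replicates, the radiation effects of OE and NC correlated at Pearson's r 0.69 over all 24 tumours and at 0.38 without tumour EIO-744.

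Cdkn1a encodes p21, which p53 induces to hold the cell cycle, and it rose in both vectors. Its level ran from 184 through a median of 235 to 342 CPM in unirradiated NC tumours and from 332 through 709.2 to 765 CPM in irradiated ones. In OE it ran from 276 through 286 to 298 CPM without radiation and from 603 through 751 to 764 CPM with it. Every irradiated tumour except NC IR I-739 was above every unirradiated tumour. The log2 radiation effect was 1.34 in OE (edgeR adjusted p 0.000338) and 1.39 in NC (adjusted p 0.00017), and their difference was -0.04 ± 0.24 (SE, adjusted p 0.963). Ccng1, another p53 target, differed by -0.38 ± 0.19 (edgeR adjusted p 0.470), and Mdm2, which encodes the ligase that degrades p53, by 0.14 ± 0.38 (edgeR adjusted p 0.921).

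Over all 24 tumours, 1 gene of 16560 passed the test of the interaction, which is 0.00604%, and 1882 genes, 11.4%, had an unadjusted p under 0.05. The gene was Timp1 (Entrez 21857, chrX:20870166-20874737, GRCm38.p6), which encodes a secreted inhibitor of matrix metalloproteinases. In the OE tumours it was at 60.9, 62.2 and 45.2 CPM after sham and at 64.8, 53.8 and 53.2 CPM after olaparib. It was at 223, 178 and 117 CPM in OE IR tumours and at 154, 140 and 164 CPM in OE IR with olaparib tumours. All 6 irradiated OE tumours were above all 6 unirradiated ones.

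In the NC tumours Timp1 did not separate by radiation. It was at 80.3, 80.4 and 93.2 CPM after sham, at 80.2, 60.9 and 72.5 CPM after olaparib, at 51.2, 57.5 and 64.0 CPM after IR, and at 51.2, 119 and 65.7 CPM after IR with olaparib. Means ± SD of 6 tumours were 77.9 ± 10.7 and 68.1 ± 25.8 CPM in NC without and with radiation, and 56.7 ± 7.3 and 163 ± 36.3 CPM in OE. Radiation raised Timp1 by 1.52 ± 0.18 (log2, SE) in OE (edgeR adjusted p 0.000172), and its effect in NC was -0.21 ± 0.18 (edgeR adjusted p 0.392). The interaction was 1.72 ± 0.25 (edgeR adjusted p 0.0237). The mean of the unirradiated OE tumours was below that of the unirradiated NC tumours, and both means enter the interaction.

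**Figure D1:**
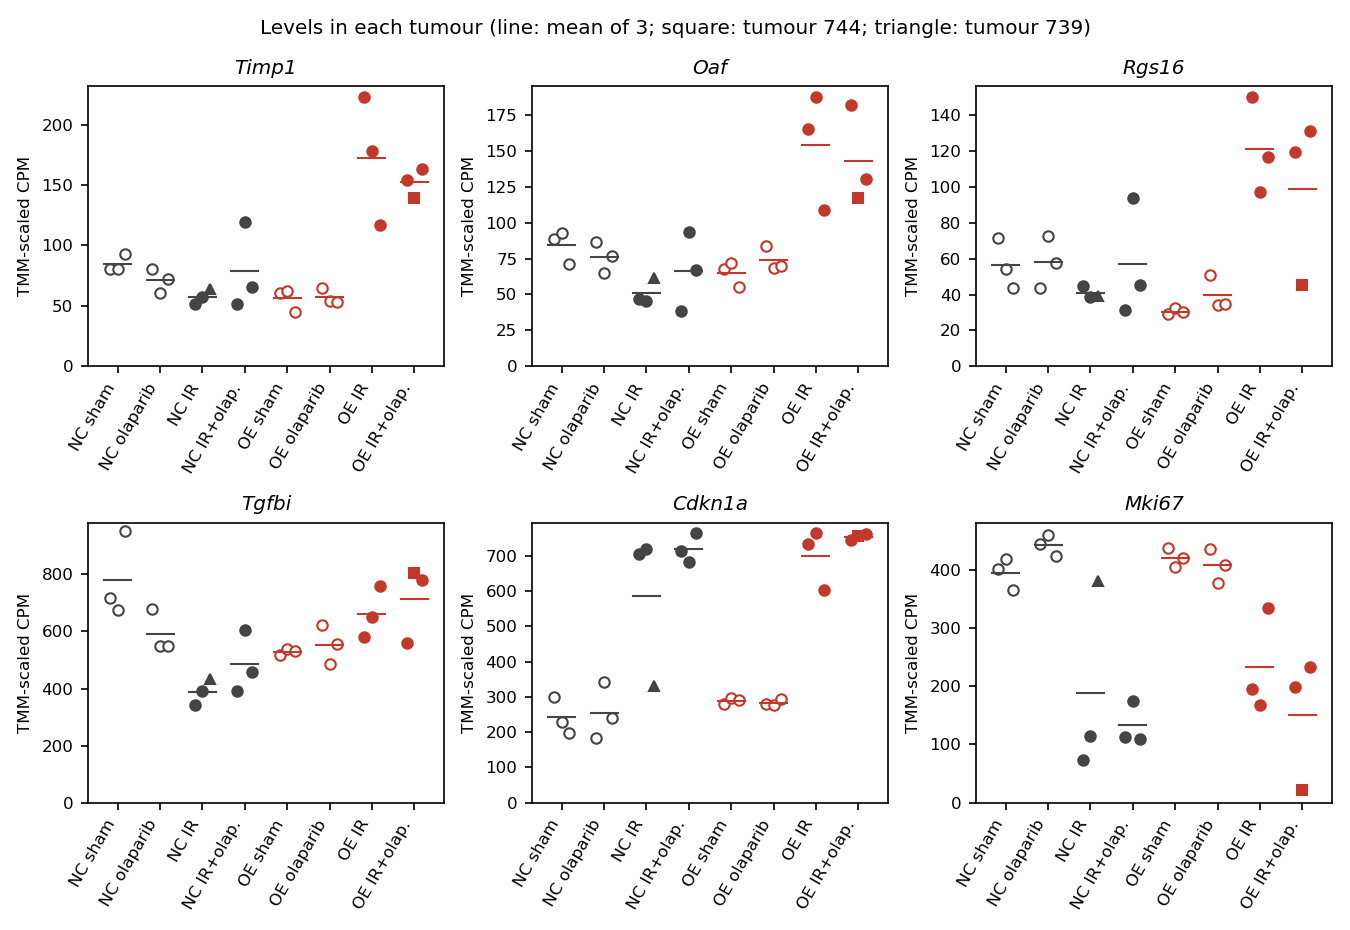
TMM-scaled CPM (y axis) of 6 genes in each of the 24 tumours, by coded group (x axis). Grey is NC, red is OE, filled symbols are irradiated, the line is the mean of 3, the square is tumour EIO-744 and the triangle tumour I-739. Timp1 and Oaf are highest in the 6 irradiated OE tumours, with 1 Timp1 value in NC, 119 CPM, inside their range, while Cdkn1a is high in irradiated tumours of both vectors except tumour I-739.

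The Timp1 call was lost in most fits with 1 tumour fewer. It remained in 6 of the 24 fits that each left out 1 tumour (those without NC olaparib O-723, NC IR I-739, NC IR with olaparib IO-726 or IO-728, OE IR EI-752, or OE IR with olaparib EIO-744) and was lost in the other 18, where its value was 1.60 to 1.78 and its edgeR adjusted p 0.0553 to 0.131. With the written labels as groups the Timp1 interaction was 0.20 (edgeR adjusted p 0.949) and 0 genes passed, with 641 at an unadjusted p under 0.05.

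The 11 genes that followed Timp1 on the higher side did not pass over all 24 tumours, and all 12 passed without tumour EIO-744. Their radiation effect was above 0 in OE and below 0 in NC in all 12. Oaf was at 55.3 to 84.1 CPM in unirradiated and 109 to 188 CPM in irradiated OE tumours, which did not overlap, and its interaction was 1.55 ± 0.26 (edgeR adjusted p 0.0518). In NC it was at 65.2 to 92.6 CPM and 38.7 to 93.6 CPM, which did. Rgs16, a regulator that shortens G protein signalling, was at 29.0 to 50.9 CPM in unirradiated and 45.2 to 150 CPM in irradiated OE tumours, with the lowest irradiated value in tumour EIO-744. Its interaction was 1.89 ± 0.37 (edgeR adjusted p 0.0812). Slc22a4, a transporter of organic cations, gave 1.86 ± 0.34 and Pcolce2, an enhancer of procollagen processing, gave 1.29 ± 0.24, both with an edgeR adjusted p of 0.0812.

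Tgfbi, a secreted matrix protein induced by TGF-beta, opposed in direction between the vectors. It was at 548 to 951 CPM in unirradiated and 342 to 606 CPM in irradiated NC tumours, and at 485 to 623 CPM and 560 to 806 CPM in OE. It fell in NC by 0.64 on the log2 scale (edgeR adjusted p 0.00343), and its OE effect was 0.35 (edgeR adjusted p 0.0815). Ripk3, the kinase of necroptosis, and Ugdh, which makes UDP-glucuronate, had interactions of 0.81 ± 0.17 and 0.93 ± 0.18. The other members of the 12 were Slc12a4, Carhsp1, Rps6ka4 and Ptgr3, with interactions of 0.52 to 0.93.

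On the lower side, 11 of the 12 genes with the smallest p were named Zfp, for zinc finger proteins, which are mostly DNA-binding regulators of transcription. None passed over all 24 tumours, and all 12 passed without tumour EIO-744. Zfp729b was at 9.75 to 19.0 CPM in unirradiated and 15.4 to 25.2 CPM in irradiated NC tumours, and at 13.4 to 22.0 CPM and 11.0 to 15.7 CPM in OE. Its interaction was -0.96 ± 0.19 (edgeR adjusted p 0.108). Zfp770 was at 12.2 to 15.6 CPM in unirradiated and 9.12 to 10.6 CPM in irradiated OE tumours, without overlap, and at 8.07 to 14.4 CPM and 11.2 to 15.2 CPM in NC. Its interaction was -0.69 ± 0.14 (edgeR adjusted p 0.108). The remaining gene was Lrif1, a chromatin protein, at -0.70 ± 0.16 (edgeR adjusted p 0.155).

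Tumour EIO-744 moved the count of called genes more than any other single tumour. Without it 593 of 16893 genes passed, which is 3.51%, with 381 higher and 212 lower. Leaving out NC IR with olaparib IO-728 gave 23 genes, NC IR I-739 gave 12 (0.0587% higher), OE IR EI-752 gave 2, and each other tumour gave 0 or 1. With both EIO-744 and I-739 left out, 2560 genes passed, which is 15.2%. Tumour I-739 was within the unirradiated NC range for Cdkn1a but not for every list. The summed cholesterol synthesis level was 516 to 1222 CPM in irradiated NC tumours, I-739 included, and 2228 to 2559 CPM in unirradiated ones. I-739 was singled out by its values, so the counts without it are not independent of that choice. The cause of the larger count was not tested.

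**Figure D2:**
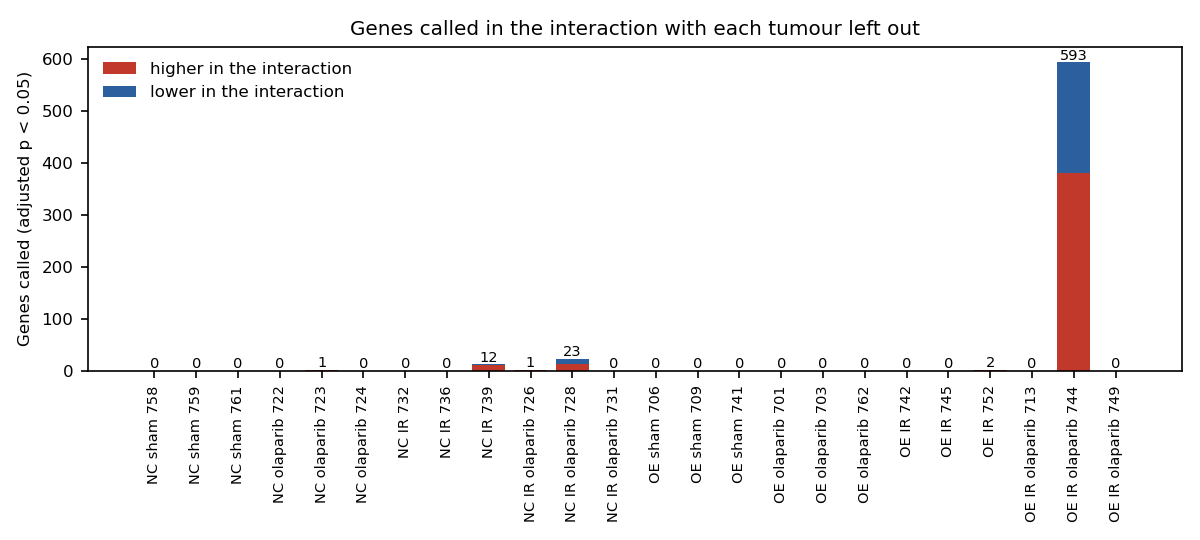
Genes called in the interaction by edgeR at an adjusted p under 0.05 (y axis) when each of the 24 tumours was left out (x axis). Red is higher and blue lower in OE relative to NC. The bar without tumour EIO-744 holds 593 genes, and the next ones 23 and 12.

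Opposite directions in NC and OE were common among the called genes. Of the 380 higher genes that were also tested over all 24 tumours, 318 had fitted radiation effects of opposite sign, with a median of 0.33 in OE and -0.40 in NC. Of the 211 lower genes, 189 had opposite signs, with a median of -0.49 in OE and 0.69 in NC. Individually, 169 of the higher genes passed in OE and 258 in NC, and 72 of the lower genes passed in OE and 145 in NC. These directions describe genes chosen by their difference.

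**Figure D3:**
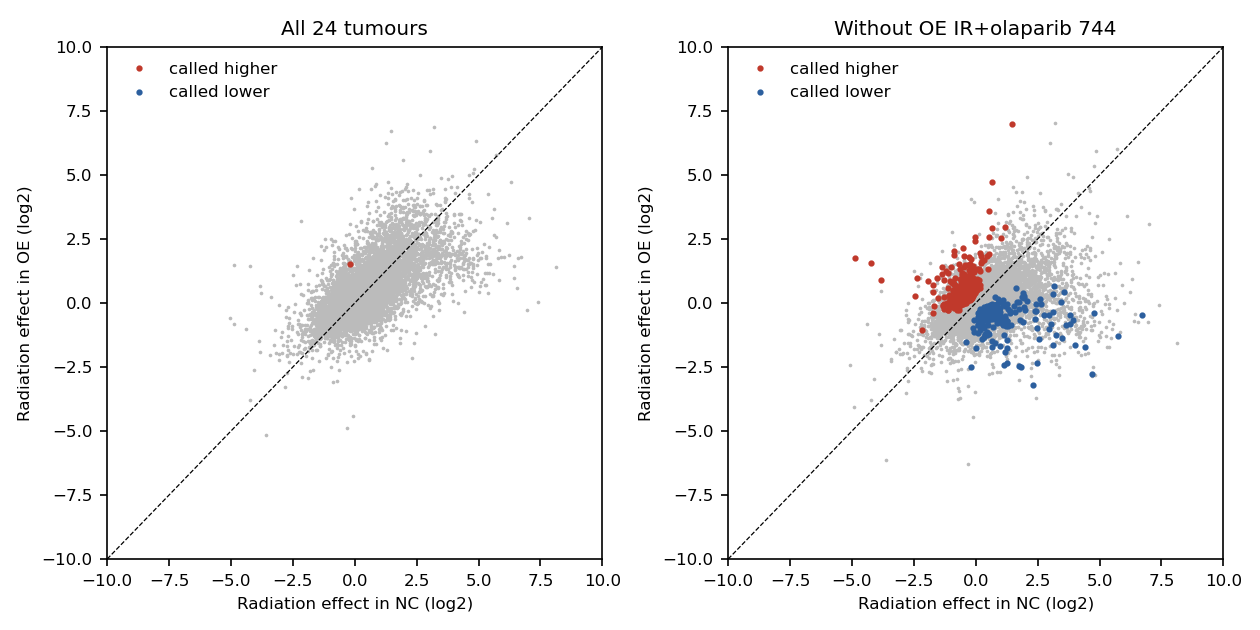
Fitted radiation effect of each tested gene in NC (x axis, log2) and OE (y axis, log2), over all 24 tumours and without tumour EIO-744. The dashed line is equality, red points were called higher and blue points lower in the interaction. The left panel holds 1 coloured point, Timp1, and in the right panel most coloured points lie in the 2 quadrants where the signs differ.

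Among the genes with the smallest p without tumour EIO-744, chosen after their values were seen, was Sox2. Sox2, a transcription factor of squamous stem cells, was at 16.2 to 26.7 CPM in unirradiated OE tumours and at 41.7 to 62.4 CPM in the 5 irradiated OE tumours other than EIO-744, where it was at 0.57 CPM. In NC it was at 24.0 to 54.7 CPM without radiation and 18.4 to 35.1 CPM with it. Without EIO-744 its interaction was 1.95 ± 0.29 (edgeR adjusted p 0.00293), and over all 24 tumours 1.65 ± 0.74 (edgeR adjusted p 0.410). Cspg4, a surface proteoglycan, gave 1.53 ± 0.22 and Tubb3, a beta-tubulin, 2.31 ± 0.34, both with an edgeR adjusted p of 0.00293.

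On the lower side without EIO-744, Pecam1, the adhesion molecule of endothelial cells, was at 83.2 to 184 CPM in irradiated NC tumours against 32.5 to 68.2 CPM in unirradiated ones, without overlap. In OE it was at 49.0 to 78.3 CPM without radiation and 44.6 to 64.3 CPM in the 5 irradiated tumours other than EIO-744, which was at 481 CPM. Its interaction was -1.33 ± 0.26 without EIO-744 (edgeR adjusted p 0.0143) and -0.44 ± 0.55 with it (edgeR adjusted p 0.801). Bmf, a pro-apoptotic member of the BCL2 family, gave -1.77 ± 0.35 (edgeR adjusted p 0.0142), and Nfia, a transcription factor, -1.06 ± 0.20 (edgeR adjusted p 0.0117).

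Genes of cell division passed as fallen in larger number in NC, and their summed levels were lower after radiation in both vectors. Summed DNA replication genes were at 2820 to 3479 CPM without and 630 to 2780 CPM with radiation in OE, without overlap. The NC values were 2241 to 4078 CPM and 1045 to 2942 CPM, with overlap. Summed mitosis genes were at 4026 to 4458 CPM and 179 to 3526 CPM in OE. In NC they were at 4232 to 4839 CPM and 845 to 3939 CPM, and neither pair overlapped. Of 40 DNA replication genes, 36 fell in NC and 7 in OE, beside 13% and 4.6% of all genes that fell. Their median effect was -1.12 in NC and -0.68 in OE, where the median over all tested genes was 0.04 in each. None passed the interaction, and 38 of 40 were above 0 with a median of 0.39. Of 37 mitosis genes, 19 fell in NC, beside the 13% of all genes, and 1 fell in OE, beside 4.6%. None passed the interaction, and their interaction median was 0.45. Mki67, the proliferation antigen, ran from 365 through 421 to 459 CPM in unirradiated and from 72.4 through 114 to 380 CPM in irradiated NC tumours. In OE it ran from 377 through 414 to 437 CPM and from 21.6 through 196 to 335 CPM. The highest irradiated NC value was tumour I-739 and the lowest OE value tumour EIO-744. Its interaction was 0.25 ± 0.58 (edgeR adjusted p 0.901).

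These counts moved with the tumours that stood apart. Without EIO-744, 40 of 40 replication genes fell in NC, beside 19.6% of all genes, and 5 in OE, beside 4.78%. None passed the interaction in that fit, where the median was 0.62. Without I-739 alone, 40 of 40 replication and 34 of 37 mitosis genes fell in NC, beside 17.4% of all genes, and 12 and 6 fell in OE, beside 6.29%. The interaction medians were then 0.73 and 0.84, and no gene of either list passed it. With EIO-744 and I-739 both left out, 31 of 40 replication genes and 36 of 37 mitosis genes passed as higher, beside 9.09% of all genes, with medians of 0.88 and 1.10. In that fit 18 replication and 18 mitosis genes fell in OE, beside 8.34% of all genes, and 40 and 37 in NC, beside 23.7%. The summed mitosis level was 845 to 3939 CPM in irradiated NC tumours and 2552 to 3526 CPM in the 5 irradiated OE tumours other than EIO-744, so the ranges overlapped through tumour I-739.

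All 24 ribosomal protein genes fell in NC, beside 13% of all genes, and 2 fell in OE, beside 4.6%, with medians of -0.63 and -0.32. Their interaction was above 0 in all 24 and passed in none. Of 22 oxidative phosphorylation genes, 14 fell in NC and 1 in OE, a share in OE near the 4.6% of all genes. Their interaction median was 0.31 and none passed. Of 28 hypoxia and glycolysis genes, 18 fell in NC (13% of all genes) and 5 in OE (4.6% of all genes), with an interaction median of 0.53. Pkm, the pyruvate kinase of glycolysis, passed the interaction without EIO-744 (0.95 ± 0.21, edgeR adjusted p 0.0247). Cholesterol synthesis genes fell in both vectors, 21 of 23 in NC and 20 in OE, beside the same shares. With EIO-744 and I-739 both left out, 11 of 23 cholesterol genes and 9 of 28 hypoxia genes passed the interaction as higher, beside 9.09% of all genes. In that fit 1 hypoxia gene passed as lower, beside 6.15% of all genes. Msmo1, a sterol oxidase of that pathway, fell by 2.14 in NC and by 1.21 in OE on the log2 scale (edgeR adjusted p 7.3e-05 and 0.00395).

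Type I interferon genes passed as risen mainly in OE. Of 31 tested members, 14 rose in OE, and 1 rose and 1 fell in NC, beside 8.17% and 12.9% of all genes that rose, with medians of 0.86 and 0.29. The interaction was above 0 in 29 of 31, with a median of 0.55, and passed in none. Before radiation the summed level of the list had a median of 2031 CPM in OE and 3276 CPM in NC. After radiation the medians were 3592 and 3818 CPM, and the OE and NC ranges overlapped both times. Without EIO-744, 25 rose in OE, beside 6.78% of all genes, and 4 in NC, beside 17.7%. In that fit 3 passed the interaction, beside 2.26% of all genes: Dhx58 and Irf7, a sensor and a transcription factor of the response, and Oasl1. With EIO-744 and I-739 both left out, 12 of 31 passed as higher, beside 9.09%. Oasl1 was at 13.2 to 34.2 CPM in unirradiated OE tumours and at 62.2 to 104 CPM in the 5 irradiated OE tumours other than EIO-744, which was at 19.7 CPM. In NC it was at 26.4 to 103 CPM without radiation and at 34.3 to 87.4 CPM with it, and the unirradiated ranges of OE and NC overlapped. The Oasl1 interaction was 1.41 ± 0.49 over all 24 tumours (edgeR adjusted p 0.297) and 1.64 ± 0.41 without EIO-744 (edgeR adjusted p 0.0359).

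A senescence list held secreted factors but also genes such as Cdkn1a, Hmga2 and Plaur, whose products are not secreted factors. Of its 25 tested genes, 16 rose in OE, beside 8.17% of all genes, and 5 rose in NC, beside 12.9%. The medians were 1.35 and 0.26, and Timp1 passed the interaction. Areg, an EGF receptor ligand, was at 0.546 to 1.44 CPM in unirradiated OE tumours and at 3.03 to 6.60 CPM in the 5 irradiated OE tumours other than EIO-744, which was at 0.823 CPM. In NC it was at 0.917 to 2.79 CPM and 0.799 to 3.66 CPM. Its interaction was 2.34 ± 0.62 (edgeR adjusted p 0.194) and, without EIO-744, 2.59 ± 0.52 (edgeR adjusted p 0.0155). Without EIO-744, Hmga2, a chromatin protein, Ereg, another EGF receptor ligand, and Plaur, the urokinase receptor, passed as well, at 0.73, 1.42 and 0.89.

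Of 25 tested NF-kB and acute inflammation genes, 13 rose in OE, beside 8.17% of all genes, and 6 in NC, beside 12.9%, and none passed the interaction with or without EIO-744. The interaction median was 0.94 over all 24 tumours and 0.33 without EIO-744, and the summed level in EIO-744 was 7527 CPM against 965 to 1208 CPM in the other 5 irradiated OE tumours. Ptgs2, the inducible cyclooxygenase, was at 4.48 to 15.7 CPM in unirradiated and 20.5 to 64.8 CPM in irradiated OE tumours, without overlap. Its interaction was 2.05 ± 0.53 (edgeR adjusted p 0.188).

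Of 37 p53 target genes, 16 rose in OE, beside 8.17% of all genes, and 20 in NC, beside 12.9%, and none passed the interaction, whose median was -0.10. With EIO-744 and I-739 both left out, 6 of the 37 passed as lower, beside 6.15% of all genes. In that fit 2 passed as higher, beside 9.09%. Of 19 alternative end joining genes, an error-prone repair route, 3 fell in OE, beside 4.6% of all genes, and 9 in NC, beside 13%, and none passed the interaction. Without I-739, 14 of 19 fell in NC, beside 17.4% of all genes. With EIO-744 and I-739 both left out, 7 of 19 passed the interaction as higher, beside 9.09% of all genes. Polq, its polymerase, was at 9.51 to 13.4 CPM in unirradiated and 1.90 to 13.2 CPM in irradiated NC tumours, and at 7.65 to 13.0 CPM and 1.01 to 8.13 CPM in OE. Its interaction was 0.05 ± 0.55 (edgeR adjusted p 0.984). Parp1, a sensor of DNA breaks, gave 0.03 ± 0.25 and Lig3, a DNA ligase, -0.07 ± 0.19 (edgeR adjusted p 0.982 and 0.917). Of 24 tested homologous recombination genes, 2 fell in OE, beside 4.6% of all genes, and 9 in NC, beside 13%. Without I-739, 21 of 24 fell in NC, beside 17.4% of all genes, and 3 in OE, beside 6.29%. With both tumours left out, 11 of 24 passed the interaction as higher, beside 9.09%. In that fit 22 fell in NC, beside 23.7%, and 9 in OE, beside 8.34%. Of 18 classical end joining genes, Polm, a polymerase that fills gaps at DNA ends, rose in OE (0.62, edgeR adjusted p 0.0103) and passed the interaction without EIO-744 (0.99 ± 0.18, edgeR adjusted p 0.00948). With both tumours left out, 2 of the 18 passed as higher, beside 9.09% of all genes, and 2 as lower, beside 6.15%. The median of the list was then -0.002.

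**Figure D4:**
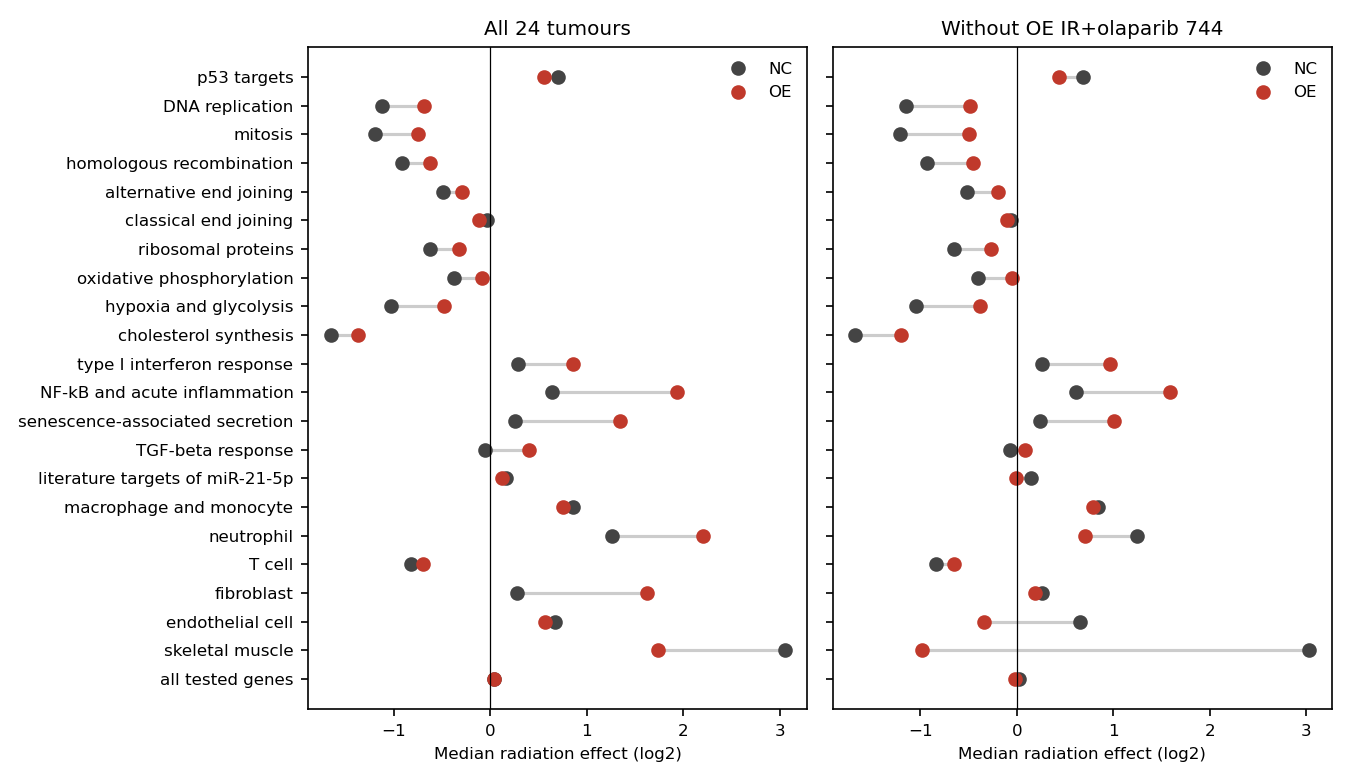
Median log2 radiation effect (x axis) of each gene list (y axis) in NC (grey) and OE (red), over all 24 tumours and without tumour EIO-744. DNA replication lies at -1.12 in NC and -0.68 in OE, type I interferon at 0.29 and 0.86, and the fibroblast median in OE moves from 1.63 to 0.19 when tumour EIO-744 is left out.

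Markers of host cells moved with tumour EIO-744 and with muscle. The fibroblast list had an interaction median of 1.16 over all 24 tumours and -0.40 without EIO-744, a change of direction, and Col1a1, the main collagen chain, was at 43296 CPM in EIO-744 and at 487 to 925 CPM in the other 5 irradiated OE tumours. The 23 tested skeletal muscle markers had an interaction median of -1.27, and -3.92 without EIO-744 and 0.65 without I-732, so that 1 tumour turned its sign. Their summed level spanned 453 to 24337 CPM in irradiated NC tumours and 150 to 2595 CPM in the 5 irradiated OE tumours other than EIO-744. Trim63, a muscle ubiquitin ligase, was at 929 CPM in NC IR I-732 and at 1.85 to 5.98 CPM in the other irradiated NC tumours. The 17 endothelial markers had an interaction median of -0.10, and -1.03 without EIO-744, where 9 of them rose in NC, beside 17.7% of all genes in that fit, and the median was 0.27 without I-732. Macrophage and monocyte markers had an interaction median of -0.06 with and without EIO-744, and 0.12 without I-732. The part of these cell types in the gene differences above was not tested.

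The Zfp genes were noticed in the values and are described without a test. Of 367 tested genes named Zfp and a number, 303 were below 0 in the interaction, with a median of -0.40 where all tested genes had 0.04. At an unadjusted p under 0.05, 134 were lower and 3 higher, where over all tested genes 851 were lower and 1031 higher. None passed, and without EIO-744, 46 passed as lower, beside 1.25% of all genes, and 1 as higher. In NC 69 rose and 13 fell after radiation, where 12.9% and 13% of all genes did. In OE 5 rose and 38 fell, where 8.17% and 4.6% did. Their summed level was 5320 to 7491 CPM without and 6261 to 7229 CPM with radiation in NC, and 6507 to 7418 CPM and 5912 to 8496 CPM in OE, where EIO-744 was the highest. Many lie in clusters of near-identical copies, between which the counting could split reads, so single members are uncertain.

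**Figure D5:**
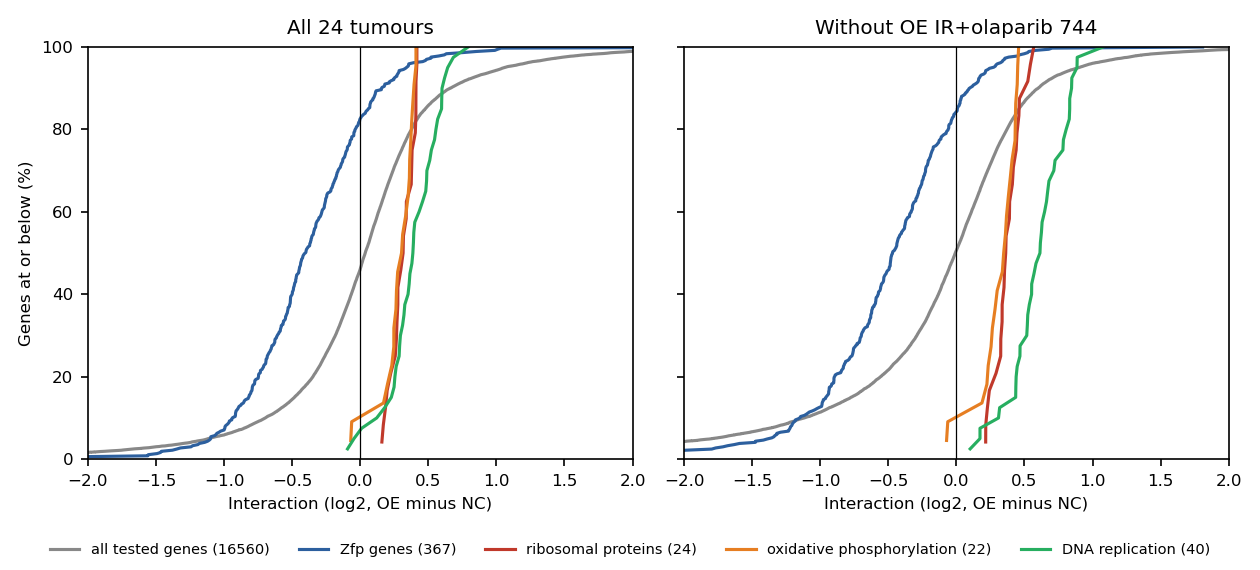
Cumulative share of genes (y axis, percent) by log2 interaction (x axis) for all tested genes, Zfp genes and 3 lists, over all 24 tumours and without tumour EIO-744, with the number of genes in brackets. The Zfp curve lies left of all genes, with a median of -0.40, and ribosomal, oxidative phosphorylation and DNA replication genes lie right of it, with medians of 0.32, 0.31 and 0.39.

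Of 47 tested targets of miR-21-5p reported in the literature, none passed the interaction over all 24 tumours and the median was 0.11. Without EIO-744, 4 passed as higher, beside 2.26% of all genes, and 1 as lower, beside 1.25%, with a median of -0.18. With EIO-744 and I-739 both left out, 6 passed as higher, beside 9.09% of all genes, and 7 as lower, beside 6.15%. A site was taken as ATAAGCT (7 bases, the complement of the seed) or ATAAGCTA (8 bases, with an A after it), on the strand of the transcript in the longest annotated 3′ UTR. Of these 47 genes, 29 hold a site. The sites of 7 are shown because their genes had the values that follow, with the match in capitals, on GRCm38.
Tgfbi: cggcatcactATAAGCTAtgagtt
Map2k3: acctacagccATAAGCTActgcca
Sox2: tccattgtttATAAGCTgagaat
Timp3: tgagctttcaATAAGCTAtagctt
Pdcd4: gggtgttctgATAAGCTActttct
Reck: acagtttgaaATAAGCTAttaatg
Spry1: aagtgcttaaATAAGCTAtatatt
They lie in the 3′ UTRs at chr13:56639174-56639197, chr11:60951909-60951932, chr3:34651864-34651886, chr10:86348217-86348240, chr19:53929422-53929445, chr4:43944397-43944420 and chr3:37643863-37643886, all on the plus strand.

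Of these 7 genes, Tgfbi, Map2k3 and Sox2 passed without EIO-744, all higher, and none passed over all 24 tumours. The 1 literature target that passed as lower without EIO-744 was Ppara, which also holds a site of 8 bases. Its interaction was -3.42 ± 0.84 (edgeR adjusted p 0.0356), at a mean of only 0.28 CPM over all 24 tumours. Map2k3, a kinase upstream of p38, was at 86.8 to 97.7 CPM in unirradiated OE tumours and at 134 to 160 CPM in the 5 irradiated OE tumours other than EIO-744, which was at 91.2 CPM. Its interaction was 0.70 ± 0.19 over all 24 tumours (edgeR adjusted p 0.194) and 0.80 ± 0.17 without EIO-744 (edgeR adjusted p 0.0212). Timp3, a matrix-bound inhibitor of metalloproteinases, gave 0.98 ± 0.39 (edgeR adjusted p 0.351), and its irradiated ranges of 465 to 874 CPM in NC and 286 to 1062 CPM in OE overlapped.

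Pdcd4, a tumour suppressor that restrains translation, was at 16.3 to 34.6 CPM without and 20.2 to 45.6 CPM with radiation in NC. It was at 18.1 to 23.7 CPM in the 5 irradiated OE tumours other than EIO-744, which was at 80.9 CPM, and at 18.1 to 28.0 CPM in unirradiated ones. Its interaction was -0.46 ± 0.40 (edgeR adjusted p 0.686), and without EIO-744 -0.89 ± 0.28 (edgeR adjusted p 0.0793). Reck, a membrane inhibitor of metalloproteinases, changed sign, from 1.00 ± 0.64 (edgeR adjusted p 0.577) to -0.20 ± 0.25 without EIO-744 (edgeR adjusted p 0.667), with 91.3 CPM in EIO-744. Spry1, an inhibitor of growth factor signalling, went from 0.22 ± 0.71 (edgeR adjusted p 0.934) to -0.80 ± 0.49 (edgeR adjusted p 0.341). Timp1, Oaf and Rgs16 hold no such site.

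Over all genes, 1106 of the 14387 tested protein-coding genes with an annotated 3′ UTR held a site, and their median interaction was -0.08, against 0.05 for the 13281 genes without. None of the 1106 passed over all 24 tumours, where 1 of the 14387 genes did. Without EIO-744, 19 genes with a site passed as higher and 26 as lower, beside 2.26% and 1.25% of all tested genes. Among the 13281 without a site, 346 passed as higher and 167 as lower. The medians in that fit were -0.12 with a site and 0.01 without. Genes with a site had longer 3′ UTRs, at a median of 2748 against 1050 bases. Among genes without a site, the median interaction fell from 0.16 in the shortest of 4 length classes of equal size through 0.08 and 0.01 to -0.05 in the longest. In the same classes it was 0.09, 0.03, -0.03 and -0.12 for genes with a site. The part of 3′ UTR length in the difference was not tested further.

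Olaparib divided the tumours into 2 sets of 12 that share none. In the fit over all 24 tumours, the interaction among the 12 without olaparib passed for 0 genes by edgeR, with 2992 at an unadjusted p under 0.05 (18.1%), and 569 passed with DESeq2. Fitted alone, these 12 gave 9 genes, with 3452 at an unadjusted p under 0.05. Among the 12 with olaparib 0 passed in the fit over all 24, with 926 at an unadjusted p under 0.05 (5.59%), 6 passed with DESeq2, and 0 passed in these 12 alone, with 496 at an unadjusted p under 0.05. The difference between the 2 sets passed for 0 genes, with 1844 at an unadjusted p under 0.05 (11.1%), and for 53 with DESeq2. Timp1 had an interaction of 2.18 ± 0.35 without olaparib and 1.27 ± 0.35 with it (edgeR adjusted p 0.0888 and 0.891), and the difference was -0.91 ± 0.50 (edgeR adjusted p 0.488). Tumour EIO-744 belongs to the olaparib set, so it is in no group of the contrast without olaparib. Leaving it out reaches that contrast only through the spread, filter and scaling, which the fit shares between tumours. Without EIO-744, 737 genes passed without olaparib (4.36%), 1 with olaparib (0.00592%) and 0 in the difference, with 978 at an unadjusted p under 0.05 (5.79%), and 946 with olaparib (5.6%). The arms with olaparib held 2 OE IR tumours in that fit. Across genes the 2 interactions correlated at r -0.37 over all 24 tumours and at 0.34 without EIO-744, as a description of genes that share libraries.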

How the data were processed

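Whole tumours were profiled by RNA sequencing from TRIzol RNA with the VAHTS Universal V5 kit, per the labels' protocols. The submitters' processing notes name fastp, HISAT2, HTSeq and the build mm10. Versions, annotation and strand setting are not given in the sources used here, so overlapping, antisense and near-identical genes are uncertain. The deposited table holds raw read counts for 27368 genes in 24 tumours, made by the authors with no normalization. Libraries held 37099055 to 40004502 counted reads, and no pair of tumours in a group agreed within sampling noise. Reads are not independent molecules, so replicate tumours set the precision.

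Groups follow the coded identifiers. The fit was edgeR 4.0.16 (R 4.3.3), quasi-likelihood F-tests, TMM scaling, filterByExpr (16560 genes kept) and 8 group means over all 24 tumours, with Benjamini-Hochberg adjustment over all tested genes. It was tested on simulated data with known folds, which held no tumour standing apart as EIO-744 does and so do not cover that case. Identifier numbers pair no tumours, so there was no paired fit. Named genes are the 12 with the smallest interaction p in each direction at a mean of at least 1 CPM, 2 per list and 23 fixed genes. Genes named without tumour EIO-744 and the Zfp family were added after their values were seen. Of 883 entries in 42 lists, 10 were not found. The members, lists and tests were chosen with earlier results of these data known. Sites were searched in GENCODE M21 transcripts. Alternatives were DESeq2 1.42.0, limma 3.58.1 voom with sample weights, other scaling, filter, labels and olaparib terms, and leaving out tumours. A gene that met the naming rule is not reported here.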

Additional observations from a re-analysis of the deposited data

Results flagged for a closer look

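The radiation effect on Timp1 differed between OE and NC tumours by 1.72 on the log2 scale, by the interaction test of edgeR over all 24 tumours (adjusted p 0.0237). All 6 irradiated OE tumours were above all 6 unirradiated OE tumours. Timp1 was the 1 gene past that test. Its call was lost in 18 of the 24 fits that left out 1 tumour, and with the written labels as groups, where the value was 0.20 (edgeR adjusted p 0.949). Labelled groups held 3 tumours each, so single tumours were not tested for distance from their group.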

How the results depend on the processing

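The count of genes past the interaction test was 1 with DESeq2 size factors and with no low-count filter, 0 with the written labels, 206 with the DESeq2 test, 2879 with limma voom and sample weights (where tumour EIO-744 had a weight of 0.077), 2 with an additive olaparib term and 7 with none. It was 0 to 593 with single tumours left out, 2560 without EIO-744 and I-739, and 238 without EIO-744, NC IR I-732 and NC sham S-761, both chosen after seeing the data. Radiation calls in OE were 0 with the written labels, 3237 with DESeq2, 6202 with voom and 879 to 3365 with single tumours left out. In NC they were 7, 5267 and 8237 with the same settings, 2510 to 6291 with single tumours left out, and 7638 without EIO-744 and I-739. Without olaparib the interaction gave 569 genes with DESeq2, 2903 with voom, 9 in the 12 libraries alone, 0 to 737 with single tumours left out, 2688 without EIO-744 and I-739, and 2 without the 3 tumours. With olaparib it gave 6 with DESeq2 and 0 to 1 with single tumours left out, and the difference gave 53 and 0 to 0. The cause of these shifts was not tested. Timp1 stayed above 0 in every alternative run, from 0.20 with the written labels to 1.94, and its call was lost with the written labels and in 18 of 24 single leave-outs. No paired analysis was possible because identifier numbers are unique to each tumour. Depth was even between libraries, and with 3 tumours a group the spread between tumours limits each value.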

Other observations

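Of 26 apoptosis regulators, 2 passed as lower in the interaction without tumour EIO-744, where 1.25% of all genes did, and none over all 24 tumours. One was Bmf, described above, and the other was Birc2, an inhibitor of apoptosis, which fell in OE by 0.67 on the log2 scale (edgeR adjusted p 0.0103) where its NC effect was 0.15 (edgeR adjusted p 0.455). The interaction of Birc2 was -0.82 ± 0.21 over all 24 tumours (edgeR adjusted p 0.177) and -0.87 ± 0.21 without EIO-744 (edgeR adjusted p 0.0356). Birc3, a related inhibitor, gave -0.76 ± 0.25 (edgeR adjusted p 0.264). Twist2 and Vim, genes of mesenchymal cells, passed as higher without EIO-744, at 0.73 ± 0.16 and 0.92 ± 0.20 (edgeR adjusted p 0.0237 and 0.0207). Krt8, an epithelial keratin, passed as higher in the same fit, at 1.56 ± 0.42 (edgeR adjusted p 0.0462). So did Nqo1, an antioxidant enzyme, at 1.09 ± 0.23 (edgeR adjusted p 0.0185). Slc2a3, a glucose transporter, gave -0.73 ± 0.22 over all 24 tumours (edgeR adjusted p 0.228), opposite in sign to most of the hypoxia and glycolysis list.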
